A study of Homo sapiens with 4 samples.

Results

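Genes for translation factors and for growth-linked proteins were examined by poly(A) site sequencing in DICER(ex5) cells, a DICER hypomorph line derived from the human colon cancer line HCT116. The method reads across the place where the tail joins the mRNA, so a count gives both the position of a transcript end and how often that end was read. The genes were EEF1A1, EEF2, EEF1G, EEF1B2, EIF4A1, PABPC1, NPM1 and TPT1. Their members are the poly(A) regions of the deposited table that lie, on the strand of the gene, inside a fixed hg19 window around each gene. The windows held 35 of 31081 regions and 107024 of 17073064 reads. All 4 libraries come from the same line, were called biological quadruplicates by the submitters and share the disrupted DICER background, with no parental line or other control, so libraries and regions can be compared but not conditions. Whether the 4 came from separate cultures is not stated beyond that word, so the spread between them may be partly technical. The libraries held 5211279, 2163977, 5713530 and 3984278 reads. The label of the cells could not be checked against marker genes, because regions carry no gene names in the table and no hg19 annotation was used.

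The members act at successive steps of protein synthesis. EIF4A1 is the RNA helicase that unwinds mRNA leaders during initiation, and PABPC1 is the cytoplasmic protein that coats poly(A) tails. EEF1A1 delivers aminoacyl-tRNA to the ribosome, EEF1B2 and EEF1G are subunits of the complex that recharges EEF1A1 with GTP, and EEF2 moves the ribosome along the mRNA. NPM1 is a nucleolar chaperone of ribosome assembly, and TPT1 is the translationally controlled tumor protein, an abundant growth-linked factor. Many mRNAs of this class are known as TOP mRNAs, whose leaders begin with a tract of pyrimidines through which growth signals set their translation.

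Because poly(A) reads say nothing of where a transcript begins, the stretch before the annotated start is shown beside the counts for a motif that some of the genes hold. RefSeq promoter entries (GRCh38.p14, a different build from the hg19 table) matched 7 of the 8 genes in 9 entries. The motif TATAA was searched on the strand of the gene from 45 to 16 bases before the start, and 5 of the 7 genes held it in an entry. Counted by entry, 5 of the 9 held it, against 4.10% of 35116 promoter entries of RefSeq. The 30 bases of that window are printed 5′ to 3′ with TATAA in capitals, to set the 5 genes that hold it beside TPT1 and EEF1G, which do not.
EEF2 (chr19:3985479-3985508, minus strand): caaccggcgtccgccTATAAaaagctgagt
EEF1A1 (chr6:73521048-73521077, minus strand): ggtgggggagaaccgtaTATAAgtgcagta
EEF1B2 (chr2:206159850-206159879, plus strand): aaacgcctccgtctctaTATAAggaatttt
EIF4A1 (chr17:7572780-7572809, plus strand): gcggagtcgggcgctcTATAAgttgtcgat
NPM1 (chr5:171387804-171387833, plus strand): cgcgagatcttcagggtctataTATAAgcg
TPT1 (chr13:45341199-45341228, minus strand): gagggacgtgccctctatatgaggttgggg
EEF1G (chr11:62573907-62573936, minus strand): tccacggctctcctctttccccctcccttc
The longest unbroken run of C or T between 10 bases before and 20 bases after the start was 17 bases in EEF1B2, 10 in NPM1, 9 in EEF1A1 and in EEF2, 8 in TPT1, 5 in EIF4A1 and 4 in EEF1G. A run of 8 or more was present in 5 of the 7 genes, in a single entry of each, and in 12.7% of all entries, a share of entries rather than of genes. EEF1B2 and NPM1 each had another annotated start without TATAA, with longest runs of 4 and 7 bases. These are matches of letters, and the poly(A) reads do not show which start was used.

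The 8 genes together took 0.568%, 0.603%, 0.659% and 0.672% of the reads in libraries 1 to 4 (mean 0.625% ± 0.0485, SD, n = 4). Levels are given in CPM, reads scaled to a common library total. Each read marks a transcript end, so no scaling by transcript length was applied. Between genes, the A-rich sequence and fragment sizes at each end can still alter how often an end is read. In bulk RNA, fewer cells expressing a gene and less RNA per cell cannot be told apart.

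EEF2 was the strongest member, with 2720, 3003, 2819 and 2850 CPM in libraries 1 to 4 over its window (2848 ± 117, SD, n = 4). It was the 11th strongest of 17963 units when all other regions of a strand were joined within 5 kb. Its libraries lay close together, with a coefficient of variation of 4.11%. The median coefficient was 10.7% over the 3734 units with 1000 reads or more. EEF1B2 gave 997, 1106, 753 and 919 CPM (944 ± 148, SD, n = 4) and TPT1 gave 590, 622, 490 and 501 CPM (551 ± 65.6, SD, n = 4). In both genes libraries 1 and 2 were above libraries 3 and 4. NPM1 gave 408, 390, 382 and 364 CPM (386 ± 18.2, SD, n = 4), a spread nearly as narrow as that of EEF2.

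PABPC1 and EIF4A1 had the widest spread of the 8 relative to their means. PABPC1 gave 484, 430, 1095 and 1138 CPM (787 ± 382, SD, n = 4), and EIF4A1 gave 359, 341, 981 and 869 CPM (637 ± 335, SD, n = 4). Neither mean describes any single library: libraries 1 and 2 lay well below it and libraries 3 and 4 well above it, with no overlap. Without these genes the other 6 took 0.483%, 0.526%, 0.451% and 0.471% of the reads, so the higher total of the 8 genes in libraries 3 and 4 was present only with PABPC1 and EIF4A1 included.

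The delivery factor EEF1A1 and its partner EEF1G stood far below the rest. EEF1A1 gave 57.8, 82.3, 34.3 and 45.4 CPM (54.9 ± 20.6, SD, n = 4), from 856 reads in all. EEF1G gave 59.3, 59.2, 30.3 and 31.6 CPM (45.1 ± 16.3, SD, n = 4), from 736 reads. They ranked 3937th and 4553rd of the 17963 units, above the median of 33.4 CPM over the 11098 units with 100 reads or more. Levels of genes with near-identical copies are uncertain in such a table. RefSeq (GRCh38.p14) lists pseudogenes named after 7 of the 8 genes: 50 for EEF1A1, 50 for NPM1, 14 for TPT1, 13 each for EIF4A1 and PABPC1, 8 each for EEF1G and EEF1B2, and 0 for EEF2. The treatment of reads that also align to a copy, not given in the sources used here, can alter these levels, and its part in them was not tested.

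**Figure D1:**
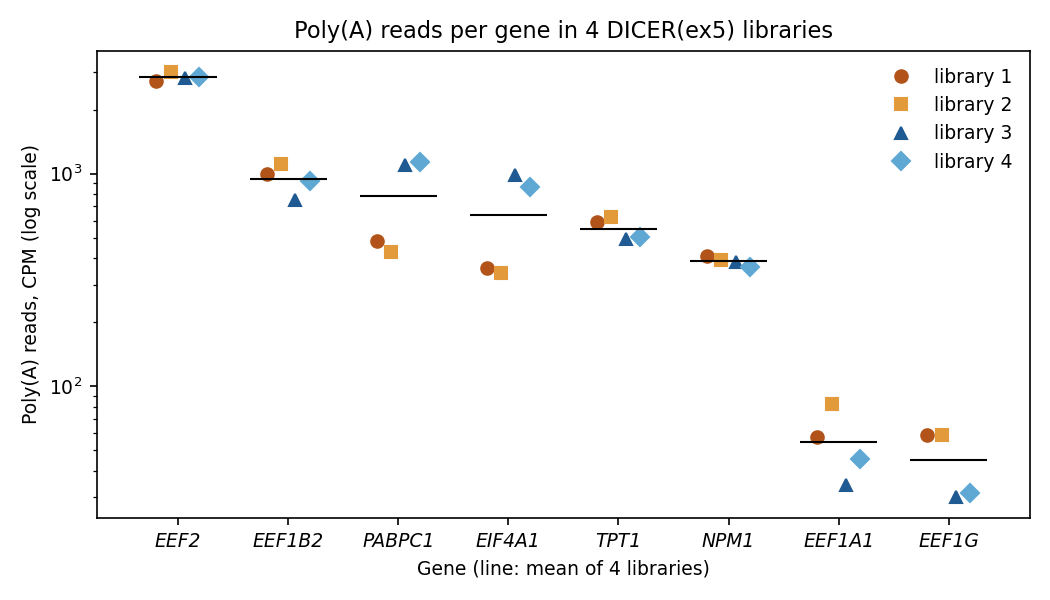
Poly(A) reads summed over the window of each gene, in CPM on a log axis, with a marker for each of the 4 libraries and a line at their mean. EEF2 lies near 2848 CPM in every library, PABPC1 and EIF4A1 divide into libraries 1 and 2 below and libraries 3 and 4 above, and EEF1A1 and EEF1G lie under 100 CPM.

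Neighbours in the order of mean levels did not all hold their order. EEF2 exceeded EEF1B2 in 4 of 4 libraries, by 1.61 ± 0.22 on the log2 scale (SD, n = 4). EEF1B2 exceeded PABPC1 in 2 of 4 libraries (1 and 2) and lay below it in libraries 3 and 4. EIF4A1 exceeded TPT1 in 2 of 4 (libraries 3 and 4) and lay below it in libraries 1 and 2. The order of these neighbours thus reversed between libraries, and their means do not rank them. PABPC1 exceeded EIF4A1 in 4 of 4 libraries, by 0.33 ± 0.12 on the log2 scale (SD, n = 4), although each varied widely. TPT1 exceeded NPM1 by 0.51 ± 0.13 and NPM1 exceeded EEF1A1 by 2.89 ± 0.51 on the log2 scale, each in 4 of 4 libraries (SD, n = 4). EEF1A1 exceeded EEF1G in 3 of 4. An exact two-sided sign-flip permutation test over 4 libraries cannot pass 0.05, since 2 of its 16 sign patterns are always as extreme, and the 4 pairs with a constant order reached that limit (adjusted p = 0.219 over 7 pairs).

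The leading region of a gene is the one with the most reads over the 4 libraries. That of EIF4A1, on chromosome 17 from 7482290 to 7482338 (hg19, plus strand), had 1848, 719, 5600 and 3455 reads, or 355, 332, 980 and 867 CPM. Its level was 2.76-fold higher in library 3 than in library 1, and 2.61-fold higher in library 4 than in library 2. That of PABPC1, on chromosome 8 from 101715129 to 101715149 (minus strand), had 1726, 499, 5532 and 3938 reads, or 331, 231, 968 and 988 CPM. The same ratios were 2.92 (library 3 to 1) and 4.29 (library 4 to 2). Both genes thus differed between the same libraries in the same direction. Of the 3453 regions with 1000 reads or more, 4.11% had a highest-to-lowest ratio above that of EIF4A1 (2.95) and 2.17% above that of PABPC1 (4.29), where the median ratio was 1.29. RefSeq also lists a transcript that joins EIF4A1 to its neighbour SENP3, and reads of that transcript at the same end cannot be told apart from those of EIF4A1.

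The leading regions of the other genes differed less between libraries, apart from EEF1A1. EEF2 had 2640, 2927, 2796 and 2828 CPM at its leading region and NPM1 had 297, 266, 302 and 278, and in both genes the libraries interleaved. TPT1 had 554, 585, 442 and 463 CPM, EEF1B2 997, 1106, 753 and 919, and EEF1G 35.9, 38.4, 28.7 and 29.4. In these genes libraries 1 and 2 were above libraries 3 and 4, with a highest-to-lowest ratio of 1.32 in TPT1, 1.47 in EEF1B2 and 1.34 in EEF1G. EEF1A1 had 24.0, 39.7, 13.7 and 16.1 CPM, and library 2 was 2.91-fold above library 3.

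Counted over the genes, the leading region of library 1 differed over 1.5-fold from that of library 3 at 3 of 8 genes (13.4% of all regions with 1000 reads or more did so) and from that of library 4 at 2 (12.3%). For library 2 the counts were 3 genes against library 3 (23.5%) and 3 against library 4 (21.6%). These were EIF4A1 and PABPC1 in each pair, and EEF1A1 in all but libraries 1 and 4. The leading regions of EEF1A1 and EEF1G had 353 and 551 reads and so lay below the minimum of that background. Between libraries 1 and 2 the count was 1 gene, EEF1A1 (1.77% of all), and between libraries 3 and 4 it was 0 (0.145% of all). With 1 library on each side no test was made. Both libraries 1 and 2 were above both libraries 3 and 4 at 4 of the 8 leading regions (against 36.7% of the regions with 1000 reads or more), and the reverse held at 2 (against 41.5%). With no minimum on the region, among genes and units with 2 or more regions and at least 100 reads, the counts were 3 of 7 (against 32.7% of 5990 leading regions) and 2 of 7 (against 36%). There each gene was its whole window, while the other units were joined within 5 kb. The labels give no batch, and what separates the libraries was not tested.

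**Figure D2:**
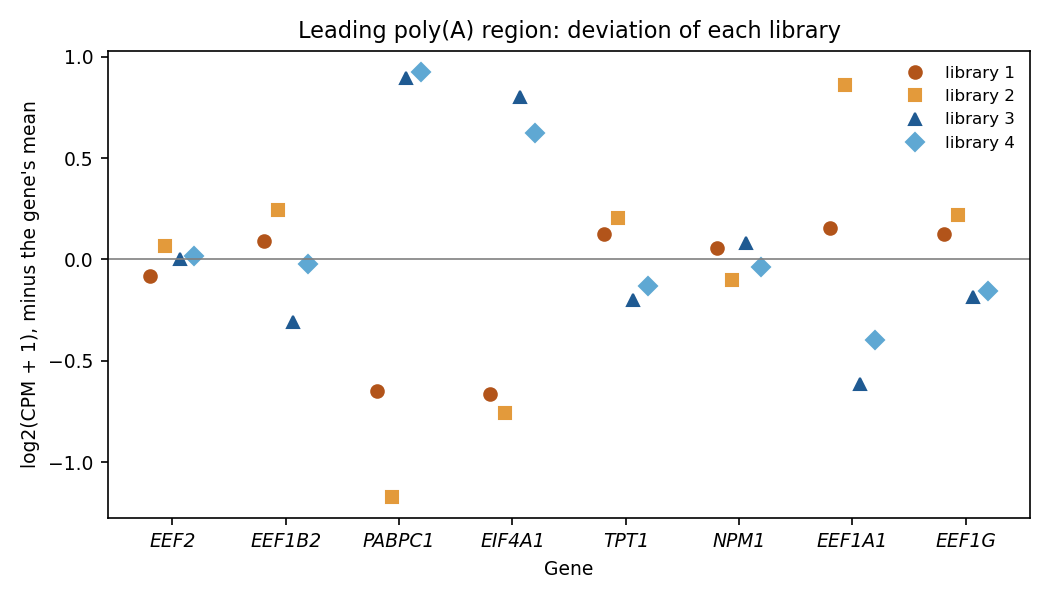
Level of the leading poly(A) region in each library as log2(CPM + 1) minus the mean of the gene over the 4 libraries. EEF2 and NPM1 stay near 0, while libraries 3 and 4 of PABPC1 and EIF4A1 lie 0.62 to 0.92 above the mean and libraries 1 and 2 lie below it.

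The number of regions per gene ranged from 1 to 11. A region passed with at least 10 reads over the libraries and at least 5% of the reads of its window. By that rule 3 of the 8 genes had 2 or more passing regions (EEF1A1, EEF1G and NPM1). Among all 11098 units with 100 reads or more the share was 45.7%. Units outside the 8 windows were joined within 5 kb, while each gene was its whole window. The passing regions of EEF1G, with ends 7355 bases apart, would not be joined by the 5 kb rule, so the count and the share are not like for like. The remaining 5 genes sent nearly all or most reads to a single region, with weaker regions around it, and the strongest other region of PABPC1 held 4.28% of its reads, just under the minimum. Near the edges of the windows, a region of 215, 80, 245 and 162 reads lay 513 bases outside that of EEF1G, and a region of 670, 271, 670 and 459 reads lay 705 bases outside that of EIF4A1. Neither entered the counts.

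EEF2, the translocation factor, had 5 regions on the minus strand of chromosome 19. The leading region, from 3976036 to 3976103, was also the most 3′ and took 97.1%, 97.5%, 99.2% and 99.2% of the reads of the gene (98.2% ± 1.13, SD, n = 4). The strongest of the other regions, from 3981344 to 3981434, ended 5308 bases upstream of it and had 322, 121, 91 and 58 reads, or 61.8, 55.9, 15.9 and 14.6 CPM. Its share was 2.27% in library 1 (95% Wilson interval 2.04% to 2.53%) and 0.565% in library 3 (0.461% to 0.693%). Libraries 1 and 2 were therefore near 4-fold above libraries 3 and 4 at this upstream region (3.88-fold for library 1 over 3 and 3.84-fold for library 2 over 4), while the leading region differed by 1.11-fold at most. The regions 4604 and 6210 bases upstream kept the same order, with 26, 8, 5 and 2 reads and with 67, 34, 22 and 21 reads. The region 117 bases upstream went the other way, with 2, 0, 12 and 6 reads.

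The exchange factor subunits differed from each other. The single region of EEF1B2 lay on chromosome 2 (plus strand), from 207027627 to 207027675, with 5197, 2393, 4305 and 3660 reads, so its usage cannot vary. EEF1G had 2 regions on the minus strand of chromosome 11. The more 3′ one, from 62327056 to 62327072, had 187, 83, 164 and 117 reads and took 60.5%, 64.8%, 94.8% and 92.9% of the reads. The other, from 62334411 to 62334459, ended 7355 bases upstream and had 122, 45, 9 and 9 reads, or 23.4, 20.8, 1.58 and 2.26 CPM. Its share was 39.5% in library 1 (interval 34.2% to 45.0%) and 5.20% in library 3 (2.76% to 9.59%). The upstream region was 14.9-fold higher in library 1 than in library 3 and 9.21-fold higher in library 2 than in library 4, while the 3′ region was 1.25-fold and 1.31-fold higher.

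EEF1A1 had 3 regions on the minus strand of chromosome 6, all of them passing. The most 3′ one, from 74225466 to 74225489, had 80, 40, 109 and 110 reads and took 26.6%, 22.5%, 55.6% and 60.8% of the reads of the gene. The middle one, from 74227212 to 74227244, led over all libraries with 125, 86, 78 and 64 reads and took 41.5%, 48.3%, 39.8% and 35.4%. It was the strongest in libraries 1 and 2 only, and the most 3′ region was the strongest in libraries 3 and 4. The most 5′ one, from 74229738 to 74229755, had 96, 52, 9 and 7 reads and took 31.9%, 29.2%, 4.59% and 3.87%. Its intervals of 26.9% to 37.4% in library 1 and 2.43% to 8.50% in library 3 did not overlap. By the planned Fisher's exact test on the leading region, no pair of libraries differed for EEF1A1 (adjusted p = 0.905 for libraries 1 and 3, 0.383 for 2 and 4). An alternative took the most 3′ region, with passing regions only and adjustment over 5071 units. By that Fisher's exact test at matched depth (two-sided), its share differed between libraries 1 and 3 (adjusted p = 5.46e-05) and between libraries 2 and 4 (adjusted p = 4.28e-07). Between libraries 3 and 4 the adjusted p was 1.

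EIF4A1 had 2 regions, both on the plus strand of chromosome 17. The leading one took 98.8%, 97.6%, 99.9% and 99.8% of the reads (99.0% ± 1.10, SD, n = 4). The other, from 7482218 to 7482235, ended 103 bases upstream and had 23, 18, 5 and 6 reads, or 4.41, 8.32, 0.875 and 1.51 CPM. The helicase gene thus had its minor region higher in libraries 1 and 2 and its leading region higher in libraries 3 and 4.

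PABPC1 had the most regions of the 8 genes: 11 on the minus strand of chromosome 8, with 3′ ends spread over 19676 bases. The leading region took 68.4%, 53.7%, 88.4% and 86.9% of the reads (74.3% ± 16.5, SD, n = 4). The strongest of the others, from 101734178 to 101734224, ended 19049 bases upstream and had 156, 112, 183 and 159 reads, or 29.9, 51.8, 32.0 and 39.9 CPM. A neighbour from 101734246 to 101734259 had 223, 79, 152 and 140 reads, or 42.8, 36.5, 26.6 and 35.1 CPM. These far upstream regions did not share the division of the libraries seen at the leading region. Summed, the 9 upstream regions gave 148, 195, 123 and 144 CPM, against 331, 231, 968 and 988 CPM at the leading region. Among them the region from 101730025 to 101730062 had the largest highest-to-lowest ratio of those read in every library, 21.1, with 20, 16, 2 and 2 reads, and the region from 101715393 to 101715397 had 1, 0, 16 and 10 reads. The 1 downstream region, 559 bases beyond the leading end, had 25, 8, 23 and 24 reads.

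NPM1, the nucleolar chaperone, divided its reads between a pair of passing regions on the plus strand of chromosome 5. The leading one, from 170833701 to 170833765, took 72.8%, 68.0%, 79.1% and 76.4% of the reads (74.1% ± 4.80, SD, n = 4). The other, from 170837855 to 170837923, ended 4158 bases downstream, had 485, 217, 417 and 308 reads and took 22.8%, 25.7%, 19.1% and 21.2% (22.2% ± 2.77, SD, n = 4). Of the 3 genes with several passing regions, NPM1 alone had a region other than the most 3′ one as the strongest in every library. A weak region 295 bases upstream of the leading end had 73, 48, 17 and 19 reads, or 14.0, 22.2, 2.98 and 4.77 CPM, and again was higher in libraries 1 and 2.

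TPT1 had 7 regions on the minus strand of chromosome 13, of which 5 ended within 305 bases of the leading end besides it. The leading one, from 45910995 to 45911049, had 2885, 1267, 2528 and 1845 reads and took 93.8%, 94.1%, 90.3% and 92.5% of the reads (92.6% ± 1.72, SD, n = 4). The strongest of the others, from 45911095 to 45911140, ended 100 bases upstream and took 3.35%, 3.71%, 2.82% and 2.61%. Of its 4 upstream regions, those 100 and 184 bases upstream were higher in libraries 1 and 2, and the other 2 were higher in libraries 3 and 4. The region 305 bases upstream, from 45911300 to 45911339, had 6, 2, 94 and 32 reads, or 1.15, 0.924, 16.5 and 8.03 CPM. The region 1800 bases upstream had 17, 2, 38 and 35 reads. The downstream regions, 101 and 214 bases beyond the leading end, had 21, 10, 23 and 16 reads (4.03, 4.62, 4.03 and 4.02 CPM) and 27, 10, 30 and 13 reads (5.18, 4.62, 5.25 and 3.26 CPM), with highest-to-lowest ratios of 1.15 and 1.61.

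**Figure D3:**
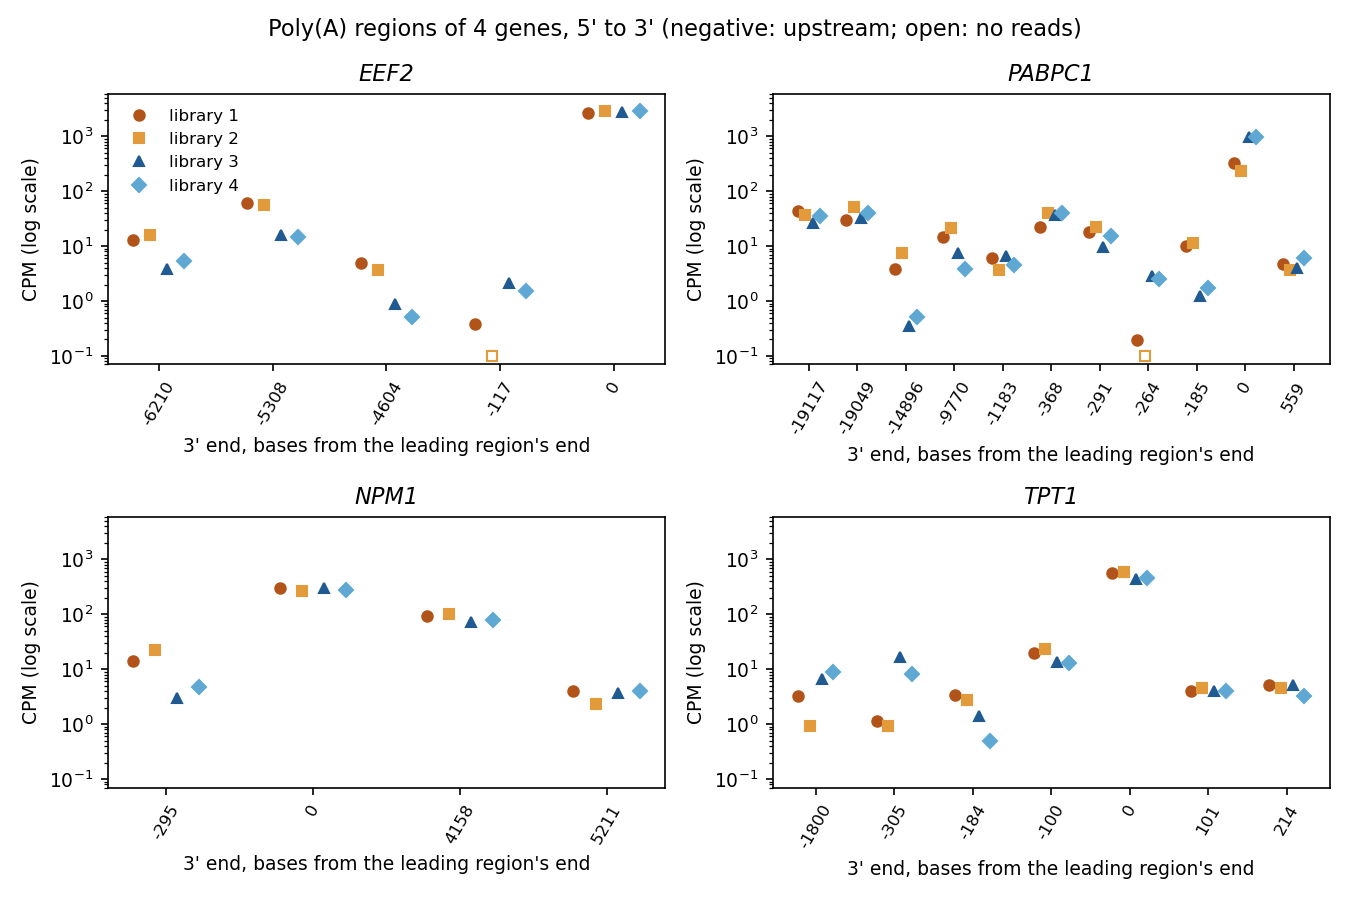
Every poly(A) region of EEF2, PABPC1, NPM1 and TPT1 in 5′ to 3′ order, labelled by the distance of its 3′ end from the leading end in bases, with CPM of each library on a log axis and open markers at the foot where a library had no reads. Upstream regions of EEF2 and NPM1 are mostly higher in libraries 1 and 2, the leading region of PABPC1 is higher in libraries 3 and 4, and in TPT1 the regions 305 and 1800 bases upstream are higher in libraries 3 and 4.

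Whether the leading region's share differed between libraries was tested over the whole table at matched depth. Counts were thinned at random to the smallest library, Fisher's exact test (two-sided) set the leading region against the rest of each unit, and p-values were adjusted over the 5990 units with 2 or more regions and at least 100 reads. EEF1B2, with 1 region, could not enter. The windows of the 8 genes were taken whole as units, while all other units were regions joined within 5 kb. By the 5 kb rule the EEF1G regions, with ends 7355 bases apart, would not share a unit. The PABPC1 regions 9770 bases or more upstream would also be split from the leading one. The counts of genes and the shares of all units thus rest on unlike units. Library 1 differed from library 3 at 6 of the 7 genes (12.5% of all units) and from library 4 at 4 (11.3%). Library 2 differed from library 3 at 6 genes (18.7%) and from library 4 at 5 (16.9%). Libraries 1 and 2 differed at 1 gene, PABPC1 (0.417%), and libraries 3 and 4 at 0 (0.0334%), where the smallest adjusted p of the 7 was 0.996 and none had an unadjusted p under 0.05. The 7 include some of the deepest units of the table, where small differences pass more easily, and the test compares libraries, not conditions. It takes reads as independent molecules, so its p-values cover counting error only, and reads copied by PCR would make them too small.

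The sizes differed more than the calls. Between libraries 2 and 3, the leading share of PABPC1 was 53.7% and 88.2% at matched depth, 34.6 percentage points higher in library 3 (Fisher's exact test, adjusted p = 1.46e-94). EEF1G was 31.9 points higher in library 3 than in library 2 (adjusted p = 4.84e-06 by the same exact test). NPM1 was 11.7 points higher (adjusted p = 1.98e-06, exact), while EIF4A1 and EEF2 were 2.39 and 1.74 points higher. TPT1 went the other way, from 94.1% to 90.1%, 3.96 points lower in library 3 (adjusted p = 0.00311, exact). For EEF1A1 the middle region's share was 48.3% and 37.3% and the adjusted p was 0.369 by the exact test. In the alternative exact test, on passing regions and adjusted over 5071 units, the share of its most 3′ region differed between these libraries (adjusted p = 2.68e-06). Between libraries 1 and 2, PABPC1's leading share was 67.6% and 53.7% at matched depth (adjusted p = 8.25e-07, exact).

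Upstream regions were set beside downstream ones after these values had been seen. The 8 windows held 21 regions upstream of the leading end and 6 downstream. Both libraries 1 and 2 were above both libraries 3 and 4 at 14 of the 21 upstream regions, against 40.5% of the 7697 upstream regions of the table. The table's regions were joined within 5 kb, with no minimum of reads per region, while the 21 had 20 to 610 reads. By the 5 kb rule the EEF1G region 7355 bases upstream and the PABPC1 regions 9770 to 19117 bases upstream would not be attached to their leading regions. Most of these are among the 14, so the shares are not like for like. The 14 lay in 7 genes: 5 in PABPC1, 3 in EEF2, 2 in TPT1 and 1 each in EEF1A1, EEF1G, EIF4A1 and NPM1. The reverse order held at 4 upstream regions (21.1% of the table's): the regions of EEF2 and PABPC1 that lay 117 and 264 bases upstream and the regions of TPT1 at 305 and 1800 bases. Of the 6 downstream regions, 2 had libraries 1 and 2 above (27.4% of 5127) and 1 had libraries 3 and 4 above (26.3%). Among the former, the TPT1 region 101 bases downstream had 4.030 CPM in library 1 and 4.026 in library 3, nearly a tie. The region in reverse order, in EEF1A1, was also close, with 18.5 CPM in library 2 and 19.1 in library 3. Regions of a gene share its transcripts and are not independent, and no test of these counts was made. The median width was 38 bases for the 21 upstream regions, 49 for the 8 leading ones and 28 for all upstream regions of the table. The oligo(dT) primer may also anneal to internal runs of A, and its part in the upstream regions was not tested.

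**Figure D4:**
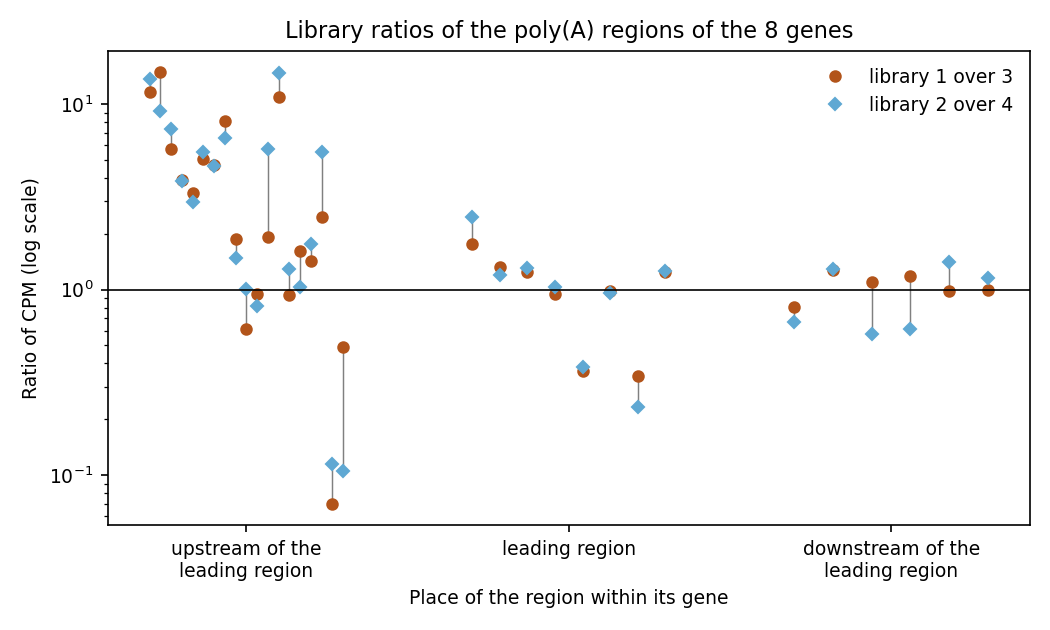
Ratio of CPM of library 1 to library 3 and of library 2 to library 4 on a log axis for the regions of the 8 genes, in alphabetical order of gene and joined by a line for each region, with 2 of the 21 upstream regions left out because library 2 had no reads there. The 2 regions left out, in EEF2 and PABPC1, were higher in libraries 3 and 4, with ratios of library 1 to library 3 of 0.183 and 0.0685. The upstream ratios shown run from 0.070 to 14.9, leading regions lie between 0.233 and 2.47, and the 6 downstream regions lie between 0.575 and 1.42.

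Summed over the upstream regions of each gene, the contrast differed in size. EEF1A1 had 18.4, 24.0, 1.58 and 1.76 CPM upstream, EEF2 80.0, 75.3, 22.8 and 21.8, and NPM1 14.0, 22.2, 2.98 and 4.77. TPT1 had 27.6, 27.7, 38.3 and 30.4 CPM, so that its upstream sum was not higher in libraries 1 and 2. EEF1G had 23.4, 20.8, 1.58 and 2.26 CPM and EIF4A1 4.41, 8.32, 0.875 and 1.51, while EEF1B2 had no upstream region. PABPC1 had the largest upstream sum, 148, 195, 123 and 144 CPM, with a small contrast (1.20-fold for library 1 over 3 and 1.36-fold for library 2 over 4). Over all 8 genes the upstream sum was 316, 374, 191 and 206 CPM and the downstream sum 126, 134, 109 and 122.

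By the root mean square distance of centred log2(CPM + 1) at the leading regions, the nearest member of EIF4A1 was PABPC1 (0.26), that of EEF1G was TPT1 (0.01) and that of EEF2 was NPM1 (0.12), each the nearest in return. The nearest of EEF1B2 was TPT1 (0.08), and EEF1A1 lay farther from every other member, with EEF1B2 the nearest at 0.39. Among regions with 1000 reads or more outside the windows, the nearest to the mean profile of the 8 genes were on chromosome 16 from 15131523 to 15131558 and on chromosome 11 from 4160069 to 4160120, both on the plus strand, and on chromosome 11 from 73583780 to 73583839 on the minus strand. Their distances were 0.0096, 0.010 and 0.012, over 4 libraries only, and the first had 77.1, 78.6, 86.1 and 88.1 CPM. The mean profile joins PABPC1 and EIF4A1, higher in libraries 3 and 4, with EEF1A1, EEF1G, EEF1B2 and TPT1, higher in libraries 1 and 2. Nearness to it is therefore not likeness to any given member.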

How the data were processed

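The authors deposited raw read counts for each poly(A) region of 4 libraries of DICER(ex5) cells, with hg19 positions, per the file headers. Bowtie2 2.2.5 and hg19 are named in the submitters' processing notes. The steps that formed and filtered regions, and any duplicate removal, are not stated, so intervals cover counting error only. Positions are printed as deposited. Libraries held 2163977 to 5713530 reads.

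From these counts, CPM, shares and 95% Wilson intervals were computed with Python 3.11.15, and Fisher's exact tests with scipy 1.17.1 and Benjamini-Hochberg adjustment over all units (threshold 0.05). Factors from edgeR 4.0.16 (TMM) and DESeq2 1.42.0 served as alternative scalings. With a single group, no count model was fitted. All 8 genes were named; of their regions, the passing, the leading and the strongest other one were named, and further ones were picked after their values were seen. Members, lists and the promoter motifs were chosen with earlier results of these data known. The planned list of other translation genes and the marker check need an hg19 annotation and are not reported.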

Additional observations from a re-analysis of the deposited data

How the results depend on the processing

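No paired analysis was possible because the libraries form a single group. The share of all reads in the 8 genes was 0.586% with leading regions only and ranged from 0.610% to 0.645% when a library was left out. The number of genes with 2 or more passing regions was 6 with a 1% minimum, 7 with no minimum and 4 with ends within 100 bases merged, and it ranged from 3 to 4 when a library was left out (4 without library 3). Between libraries 1 and 2, no gene's level differed over 1.5-fold when whole windows were summed, giving 0, and 0 did at 2-fold. Summed windows gave 4 genes between libraries 1 and 3, 2 and 3, and 2 and 4, and 3 genes between libraries 1 and 4. At 2-fold the count between libraries 1 and 3 was 2. For these counts of genes, by passing regions and by fold, the share over the whole table was not computed at the alternative settings. In the usage test, limiting each unit to passing regions left 3 genes to test. The most 3′ passing region then gave 0, 3, 2, 3 and 3 calls, and the leading one 0, 2, 1, 2 and 2, for libraries 1 and 2, 1 and 3, 1 and 4, 2 and 3, and 2 and 4. Among all 5071 units tested, the most 3′ passing region gave 15, 523, 472, 791 and 713 calls for the same pairs. The leading one gave 18, 581, 532, 912 and 812. These units were joined within 5 kb, unlike the whole windows of the 3 genes. Over the whole table, unthinned counts as deposited called 1673 units in place of 749 between libraries 1 and 3, and 58 in place of 25 between libraries 1 and 2. TMM and DESeq2 scaling left every count of genes as reported. By Dixon's criterion, none of 24 levels and shares had an outlying library. That criterion looks for 1 library apart from the rest, so it cannot flag a split of libraries 1 and 2 from libraries 3 and 4. Depth limits EEF1A1 and EEF1G most, with 856 and 736 reads in all.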
